A study of Rattus norvegicus with 4 samples.

Results

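The 9 genes Slc1a2, Slc1a3, Glul, Slc6a11, Slc7a10, Kcnj10, Aqp4, Slc4a4 and Gfap, known for the uptake, water, potassium and filament functions of astrocytes, were followed through every nucleus of the rat ventral tegmental area. They are 9 of the 32883 genes listed in the count tables. They were chosen by name as known astrocyte genes, with earlier results of these data known. Tissue came from Sprague-Dawley rats aged 90 to 120 days and weighing 200 to 250 g, which had received no treatment. The data were 4 libraries of sorted nuclei, Female 1, Female 2, Male 1 and Male 2, and each held the pooled tissue of 3 rats of one sex. Nuclei were assigned to 7 populations by the UMIs (counted RNA molecules) of other genes. A nucleus needed at least 2 UMIs of Gja1 and Agt together for the astrocyte gate, of Pdgfra for the oligodendrocyte precursor gate, of Mog and Mobp for the oligodendrocyte gate, or of Csf1r and C1qa for the microglia gate. The neuron gates needed at least 2 UMIs of both Th and Slc6a3 (dopamine), of Gad1 (GABA), or of Slc17a6 without any Gad1 (glutamate).

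Astrocytes clear transmitter that neurons release. Glutamate enters them through the sodium-coupled carriers Slc1a2 (GLT-1) and Slc1a3 (GLAST), glutamine synthetase (Glul) turns it into glutamine, and Slc6a11 (GAT-3) takes up GABA. The potassium channel Kcnj10 (Kir4.1) and the water channel Aqp4 are concentrated at the endfeet that astrocytes place on vessels, the cotransporter Slc4a4 moves sodium with bicarbonate, Slc7a10 (Asc-1) exchanges small neutral amino acids such as serine, and Gfap forms intermediate filaments. In the ventral midbrain these functions surround dopamine neurons, whose firing is set by glutamate and GABA inputs.

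Libraries held 19714338 to 25824289 UMIs, and 20620 nuclei of 21606 barcodes were kept, with a median of 2385 to 3857 UMIs per nucleus. Each pair of libraries shared 4 to 9 barcodes. The gates held 2406 astrocyte, 1320 precursor, 9419 oligodendrocyte, 1005 microglia, 298 dopamine, 1103 GABA and 1533 glutamate nuclei, 82.9% of all nuclei kept. Another 3265 nuclei met no gate, and 271 met several and were set apart. A reference list of 10 other astrocyte genes, among them Aldh1l1, Gjb6 and Sox9, summed to 2728 to 3084 CPM in the astrocyte gate and to 9.45 to 76.3 CPM in the other gates. Levels are given as CPM, the UMIs of a gene scaled to the total of all UMIs in a gate and library. They are not corrected for gene length, so levels are compared between gates and not between genes.

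All 9 genes had a higher level in the astrocyte gate than in the precursor, dopamine, GABA and glutamate gates, by a rule that asked for an adjusted p under 0.05 (edgeR's quasi-likelihood test, Benjamini-Hochberg over all genes) together with a log2 fold change beyond 1. The share of all 13111 genes tested that passed this rule on the astrocyte side was 14.3% against precursors, 18.5% against dopamine neurons, 18.1% against GABA neurons and 18.4% against glutamate neurons. Against the oligodendrocyte gate 7 of 9 passed, beside 21% of all genes, and Glul and Kcnj10 did not. Against the microglia gate 8 of 9 passed, beside 23.6% of all genes, and Slc1a3 did not. The members' median log2 fold change was lowest against precursors, at 6.02, and highest against GABA neurons, at 7.41, with genes at 0 UMIs in a gate set to their lower bound, and the median of all genes was between -0.04 and 0.03 except against microglia, at 0.17.

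**Figure D1:**
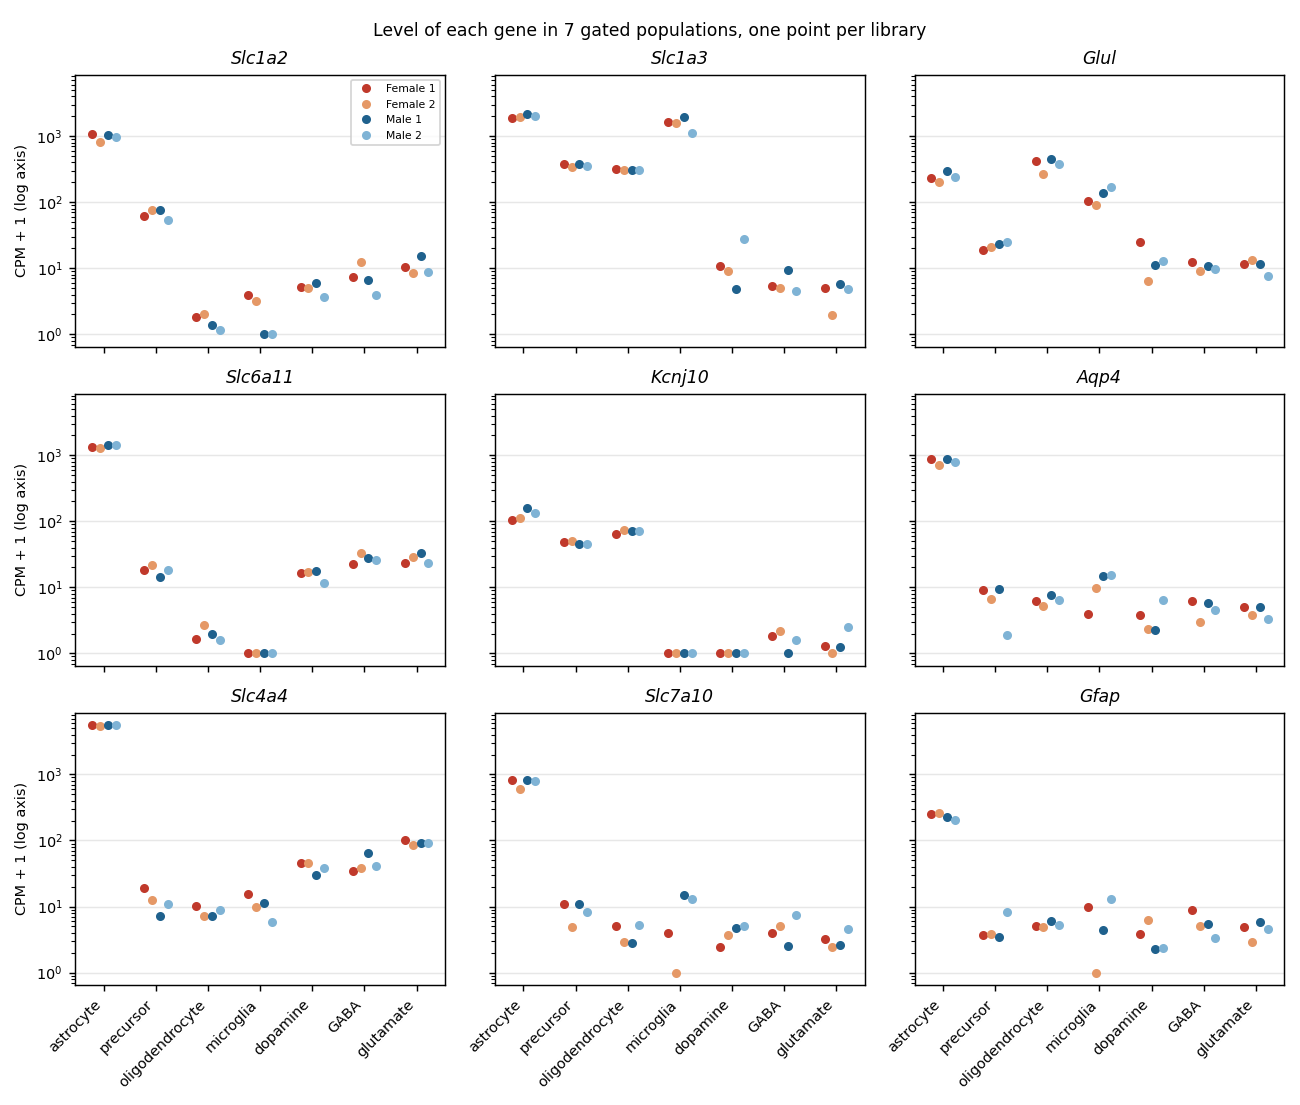
Level of each of the 9 genes (CPM plus 1, log axis) in the 7 gated populations, with 1 point for each of the 4 libraries. Every gene is high in the astrocyte gate, Slc1a3 is also high in microglia, Glul in oligodendrocytes and microglia, and Kcnj10 in oligodendrocytes and precursors.

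RNA that leaks from broken cells enters every droplet, so each level outside the astrocyte gate was set beside that of the 10 reference genes as a percent of the astrocyte level. The median reference gene stood at 1.00% in the precursor gate, 0.557% in the oligodendrocyte gate, 0.668% in the microglia gate, 0.449% in dopamine, 0.416% in GABA and 0.431% in glutamate neurons. Slc1a3, Glul and Kcnj10 exceeded every reference gene in the oligodendrocyte gate, and Slc1a3 and Glul did so in microglia. In precursors Slc1a3 did so too. The reference genes gauge RNA from astrocytes only, so for Glul and Kcnj10, which had most of their UMIs in oligodendrocyte nuclei, they set no limit in the remaining gates. Aqp4 and Slc7a10 stayed within the range of the reference genes in all 6 other gates.

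**Figure D2:**
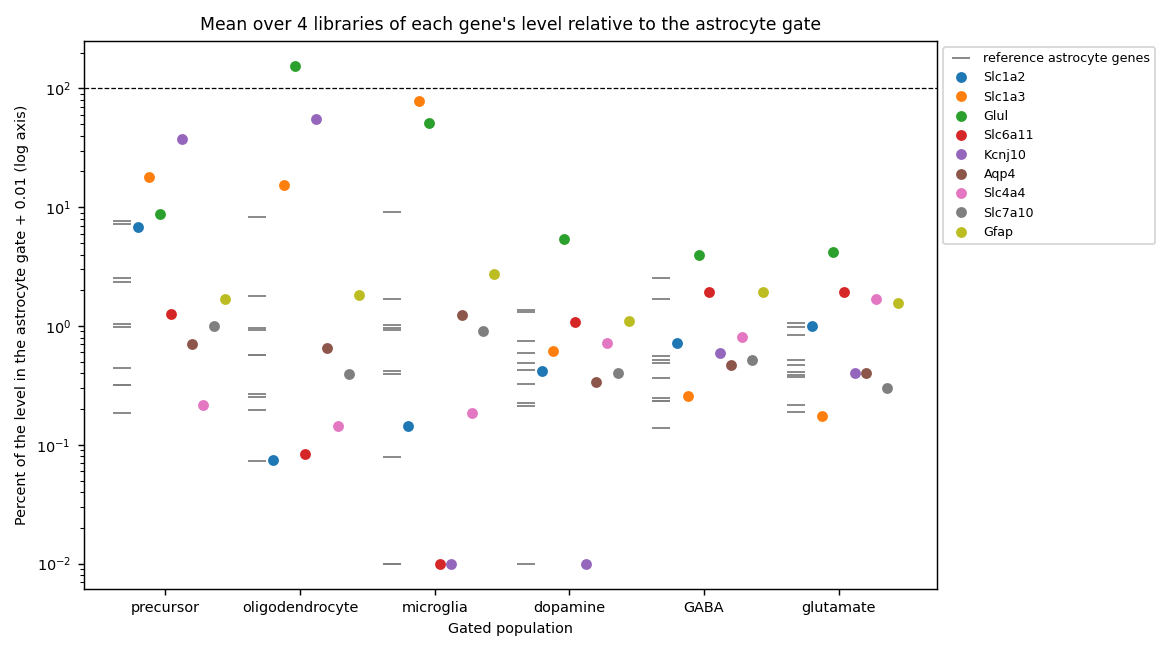
Mean over 4 libraries of each gene's level in 6 gates as a percent of its level in the astrocyte gate (plus 0.01, log axis), with grey dashes for the 10 reference astrocyte genes and a dashed line at the astrocyte level. Glul in oligodendrocytes (156%), Slc1a3 in microglia (78.0%) and Kcnj10 in oligodendrocytes (55.5%) stand highest, and points at the bottom are genes with 0 UMIs.

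Of the 2 glutamate carriers, Slc1a2 was the more restricted. Its level in the astrocyte gate was 1075 and 826 CPM in Female 1 and 2 and 1034 and 959 CPM in Male 1 and 2. Precursors followed at 52.0 to 75.8 CPM, and no library of another gate held more than 14.5 CPM. The astrocyte and precursor values did not overlap (log2 fold change 4.02 ± 0.12 (SE), edgeR adjusted p = 3.11e-29). Precursors in turn lay above oligodendrocytes, at 0.156 to 1.02 CPM, by 6.36 ± 0.28 on the log2 scale (edgeR adjusted p = 1.02e-23), a contrast in which 20.8% of all genes were higher in precursors. The 6.87% that precursors kept of the astrocyte level was within the range of the reference genes there, whose highest value was 7.62%. Only Atp13a4 (7.62%) and Fgfr3 (7.24%) stood above Slc1a2, which was 6.84-fold the median reference gene. The part of leaked RNA in this level was not tested. Among glutamate, GABA and dopamine neurons, microglia and oligodendrocytes, neighbours in the order of Slc1a2 levels did not differ by the rule. The ends of this order lay apart, with 7.48 to 14.5 CPM in glutamate neurons, above all oligodendrocyte libraries.

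Slc1a3 was high in all 4 glial gates. Astrocytes held 1911, 1951, 2143 and 2021 CPM, in the library order of Female 1 and 2, then Male 1 and 2. Microglia held 1653, 1553, 1929 and 1126 CPM. Each library was lower in microglia than in astrocytes, yet the ranges of the gates overlapped. The difference of 0.50 ± 0.11 on the log2 scale had an edgeR adjusted p of 1.16e-04 but was below the fold rule. At an equal depth of 1500 UMIs, 79.5% ± 6.1 of microglia-gate nuclei (SD, n = 4; 75.7% without thinning) and 90.2% ± 0.92 of astrocyte-gate nuclei (SD, n = 4; 96.3% without thinning) held a Slc1a3 UMI. Only 407 of the 1005 microglia nuclei were that deep. In the same microglia sums Slc6a11 and Kcnj10 had no UMI at all, and the 10 reference astrocyte genes summed to 49.6 to 72.8 CPM with Fgfr3 and Atp13a4 at 0. Acsbg1 was the highest of the 10, at 39.3 to 55.8 CPM, a mean of 9.03% of its astrocyte level.

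Precursors and oligodendrocytes held a middle level of Slc1a3. The precursor libraries held 339 to 379 CPM and the oligodendrocyte libraries 306 to 314 CPM, without overlap and higher in precursors in all 4 libraries. After TMM scaling the fitted difference was 0.00 ± 0.11 on the log2 scale (edgeR adjusted p = 1), and the pair was not called. Astrocytes were above oligodendrocytes by 2.60 ± 0.11 (edgeR adjusted p = 3.52e-25). In neurons Slc1a3 was between 0.934 and 26.7 CPM. Dopamine nuclei were called above GABA nuclei for Slc1a3 (1.26 ± 0.47, edgeR adjusted p = 0.0418), where 5.14% of all genes passed, but Male 2 alone held 26.7 CPM and without it the difference was 0.39 (adjusted p = 0.674).

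Because Slc1a3 and Glul were the members found most widely outside astrocytes, the 250 bases before their starts are shown, from RefSeq on the GRCr8 build. Slc1a3 is given at chr2:59557809-59558058 on the minus strand, for the outermost of 3 listed starts, and Glul at chr13:68575816-68576065 on the plus strand, for the second of 2. Capitals mark the match to TTGGCA, the core bound by nuclear factor I, which lies on the opposite strand in both.
Slc1a3: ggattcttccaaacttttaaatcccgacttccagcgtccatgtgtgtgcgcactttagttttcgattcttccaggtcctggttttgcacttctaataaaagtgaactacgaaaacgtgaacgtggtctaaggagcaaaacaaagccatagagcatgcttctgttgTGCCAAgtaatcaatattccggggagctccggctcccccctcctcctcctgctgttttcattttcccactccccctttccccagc
Glul: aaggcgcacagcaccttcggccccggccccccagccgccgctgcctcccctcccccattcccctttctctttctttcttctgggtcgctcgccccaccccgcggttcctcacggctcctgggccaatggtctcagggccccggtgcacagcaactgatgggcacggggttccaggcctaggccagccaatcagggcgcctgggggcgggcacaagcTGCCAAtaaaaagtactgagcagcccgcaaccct
Among the 9 members these 2 held TTGGCA on either strand, as did 12.0% of 33469 promoter windows of this length. A member was counted if any of its listed windows held a match, whereas the 12.0% is a share of single windows. The full nuclear factor I palindrome was in 0.0359% of windows, the SOX core ACAATG in 11.1% and the STAT site TTCNNNGAA in 7.67%, and none of these was in a member's window. The deposited counts use an older build, so only the gene symbols join the sequences to the levels.

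Glul, which makes glutamine from glutamate and ammonia, was highest in oligodendrocytes and not in astrocytes. The astrocyte gate held 233 and 202 CPM in Female 1 and 2 and 296 and 242 CPM in Male 1 and 2. The oligodendrocyte gate held 419, 269, 455 and 377 CPM in the same order. It was higher in each of the 4 libraries, although the ranges of the gates overlapped. The edgeR difference, astrocyte minus oligodendrocyte, was -0.73 ± 0.09 on the log2 scale (adjusted p = 6.83e-10), short of the fold rule. At 1500 UMIs, 38.9% ± 6.1 of oligodendrocyte nuclei and 29.9% ± 4.0 of astrocyte nuclei (SD, n = 4) held a Glul UMI, and without thinning the shares were 51.2% and 50.6%.

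Microglia held 89.6 to 170 CPM of Glul, all below the astrocyte libraries. This difference passed the rule at 1.06 ± 0.14 (edgeR adjusted p = 1.20e-08) but fell to 0.98 without Female 2, under the fold minimum. Precursors, the cells from which oligodendrocytes form, held 18.0 to 24.2 CPM, and the difference between the pair was -4.36 ± 0.14, precursor minus oligodendrocyte (edgeR adjusted p = 2.01e-28), where 13.9% of all genes were lower in precursors. Neurons held 5.32 to 24.1 CPM. In each neuron gate this was 3.97% to 5.34% of the astrocyte level. Oligodendrocyte nuclei held 76.4% ± 5.1 of all Glul UMIs in the kept nuclei, and astrocyte nuclei 15.4% ± 5.0 (SD, n = 4), so astrocyte reference genes are no measure of leaked Glul, and its low levels in precursors and neurons were not told apart from leaked RNA.

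Within the oligodendrocyte gate the levels of Slc1a3, Glul and Kcnj10 differed between nuclei marked by Opalin and nuclei marked by Klk6 and Hapln2, genes of separate mature oligodendrocyte sets. This division was added after values had been seen, and no test was made. Opalin nuclei (789, with at least 2 Opalin UMIs and no Klk6 or Hapln2) held 121, 98.0, 82.7 and 140 CPM of Slc1a3 in the same library order. Klk6 and Hapln2 nuclei (2500, with at least 2 UMIs of the pair and no Opalin) held 445, 421, 464 and 418 CPM, 3.00 to 5.61 times as much, with no overlap. The ratio for Glul was 1.44 to 2.71, from 128 to 275 CPM up to 261 to 417 CPM, so the ranges overlapped while every library was higher in the Klk6 and Hapln2 nuclei. Kcnj10 went from 37.9 to 46.7 CPM up to 73.1 to 80.5 CPM, a ratio of 1.62 to 1.94 with no overlap. The other 6 members were at most 11.5 CPM in either set. Median depth was 2232 to 3437 UMIs in the Opalin nuclei and 1746 to 2768 in the others, and the part of depth was not tested.

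**Figure D3:**
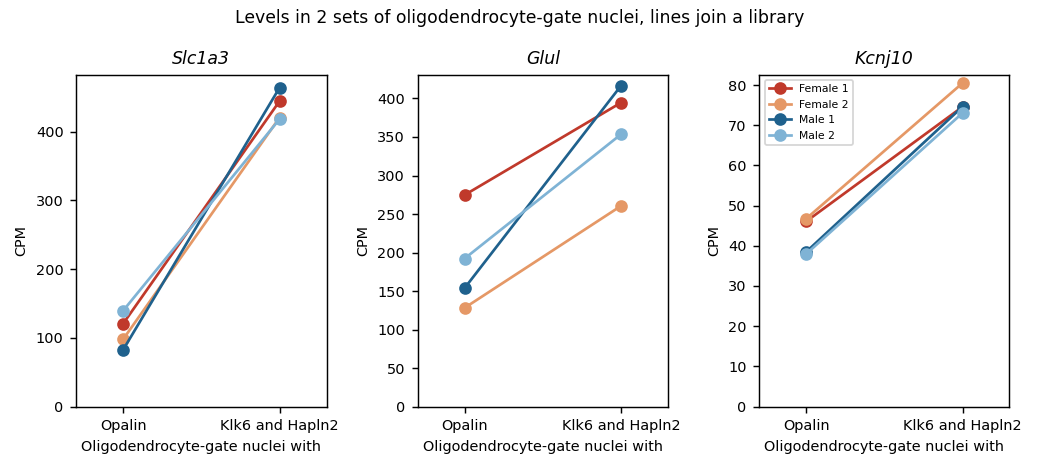
CPM of Slc1a3, Glul and Kcnj10 in oligodendrocyte-gate nuclei with Opalin and in those with Klk6 and Hapln2, each line joining the 2 values of a library. All 12 lines go up to the right, and only for Glul do the 2 sets overlap.

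Slc6a11, the GABA carrier of astrocytes, held 1347, 1277, 1417 and 1446 CPM in the astrocyte gate, again from Female 1 to Male 2. No microglia library held a single UMI among 1500888 in the gate. Counting 3 UMIs over the gate as the limit, the astrocyte level was at least 686-fold higher. The oligodendrocyte gate held 0.624 to 1.65 CPM. Neurons held more, with 21.5 to 32.7 CPM in GABA, 22.6 to 31.8 in glutamate and 10.7 to 16.4 in dopamine nuclei, and precursors 13.4 to 21.1. Oligodendrocyte minus GABA was -4.25 ± 0.24 on the log2 scale (edgeR adjusted p = 4.09e-19), in a contrast where 26.2% of all genes were lower in oligodendrocytes. In glutamate neurons its 1.91% of the astrocyte level was above every reference gene, the highest of which stood at 1.04%, and in GABA neurons its 1.94% was within their range. Only Bmpr1b, at 2.52%, stood above it in GABA neurons. Relative to the median reference gene, Slc6a11 was 4.66-fold in GABA and 4.44-fold in glutamate neurons. Its levels in these 2 gates did not differ by the rule.

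Slc7a10 was close to the reference genes everywhere outside astrocytes. Its astrocyte level was 831 CPM in Female 1, 600 CPM in Female 2 and 814 and 797 CPM in Male 1 and 2, and no library of another gate passed 13.9 CPM. Precursors, next in order, were 6.77 ± 0.17 lower on the log2 scale (edgeR adjusted p = 1.17e-32). At 1500 UMIs 65.8% ± 4.2 of astrocyte nuclei held a UMI (86.0% without thinning), against 0.367% to 1.18% in the other gates.

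Kcnj10, the inward rectifier that carries potassium into astrocytes, was shared by the macroglia. The astrocyte gate held 104 and 112 CPM in Female 1 and 2 and 157 and 133 CPM in Male 1 and 2. Oligodendrocytes held 63.0 to 71.8 CPM and precursors 44.0 to 48.9 CPM, and none of these 3 ranges overlapped. Astrocytes exceeded oligodendrocytes by 0.76 ± 0.10 on the log2 scale (edgeR adjusted p = 2.49e-08), short of the fold rule, and exceeded precursors by 1.54 ± 0.14 (edgeR adjusted p = 4.77e-12), which passed it. Oligodendrocyte nuclei, the most numerous, held 57.6% ± 8.2 of all Kcnj10 UMIs and astrocytes 32.1% ± 8.4 (SD, n = 4). Microglia and dopamine nuclei held no UMI of Kcnj10 in any library. The astrocyte level was at least 63.3-fold higher than in microglia and at least 126-fold higher than in dopamine neurons, again with 3 UMIs over the gate as the limit. A count of 0 in 298 dopamine nuclei allows a share of nuclei with a UMI of up to 1.01%, and 0 in 1005 microglia nuclei up to 0.299%. These limits cover counting error only.

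Aqp4 held 873, 718, 892 and 800 CPM in the astrocyte gate and 0.897 to 14.6 CPM in all libraries of the other gates. Microglia were next, at 2.92 to 14.6 CPM, and were lower by 6.45 ± 0.19 on the log2 scale (edgeR adjusted p = 5.57e-30). A UMI of this water channel was present in 61.0% ± 3.0 of astrocyte nuclei at 1500 UMIs (79.8% without thinning). The other gates held 0.382% to 1.30% at that depth.

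Slc4a4 was the member detected in most astrocyte nuclei, 99.0% ± 0.65 at 1500 UMIs (SD, n = 4; 99.3% without thinning). Its level there was 5557, 5347, 5517 and 5562 CPM, the smallest spread relative to its mean of the 9 genes. Among the other gates glutamate neurons stood apart with 83.6 to 99.9 CPM, above GABA neurons at 33.5 to 63.7 and dopamine neurons at 29.0 to 45.2 CPM. GABA minus glutamate was -1.07 ± 0.14 on the log2 scale (edgeR adjusted p = 5.60e-08), where 1.97% of all genes were lower in GABA neurons, and it fell under the fold minimum, at -0.92, without Female 1. Dopamine minus glutamate was -1.21 ± 0.19 (edgeR adjusted p = 1.96e-06), where 5.29% of all genes were lower in dopamine neurons. Other glia held 4.86 to 18.0 CPM. In glutamate neurons the 1.67% of the astrocyte level was above all 10 reference genes, and 11.1% ± 0.87 of nuclei held a UMI at 1500 UMIs (36.2% without thinning).

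Gfap, the filament gene, was sparse in these nuclei. The astrocyte gate held 252, 260, 229 and 206 CPM, and no library of another gate held more than 12.1 CPM. In glutamate neurons its 1.54% of the astrocyte level was above every reference gene, the highest of which stood at 1.04%. Its percent was higher in GABA neurons (1.93%), oligodendrocytes (1.83%), precursors (1.68%) and microglia (2.72%), but the highest reference gene there stood at 2.52% to 9.03%. Relative to the median reference gene, Gfap was 4.63-fold in GABA and 3.57-fold in glutamate neurons. At 1500 UMIs 18.8% ± 1.0 of astrocyte nuclei held a UMI (27.9% without thinning), against 0.520% to 0.760% in the other gates. Kcnj10, at 14.6% ± 2.3, was the only member detected in fewer astrocyte nuclei.

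The astrocyte nuclei of females and males did not differ in any of the 9 genes by edgeR's adjusted p. An unadjusted edgeR p under 0.05 was found for 1 of 9 (Kcnj10), beside 315 of all 10608 genes tested. DESeq2 also called none of the 9. Of all 10608 genes, 0.00943% were higher and 0.0566% lower in females by edgeR, 7 in number, led by AC241873.1 and the Y-linked Kdm5d and Eif2s3y. Without Female 2, Male 1 or Male 2 the number was 13, 22 or 35, and no member was among them. Kcnj10 was lower in both females than in both males, with a female minus male difference of -0.39 ± 0.15 on the log2 scale (edgeR adjusted p = 0.999). Slc1a3, Glul, Slc6a11 and Gfap also had separate ranges by sex, with edgeR adjusted p of 0.999 each, and Gfap alone was the higher in females (0.26 ± 0.13). Ranges of 2 libraries each can separate without a sex difference, and the share of all 10608 genes with separate ranges was not counted. With 2 pools per sex, each of 3 rats, these p-values measure the spread between pooled libraries.

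Inside the astrocyte gate most nuclei held several members at once. After thinning to 1500 UMIs, a nucleus held 5.27 ± 0.13 of the 9 genes on average (SD, n = 4), 32.1% of nuclei held 5 and 28.1% held 6. All 9 were found in 0.491% of nuclei and none in 0.474%. For each of 36 pairs the share of nuclei with both genes was divided by the product of the single shares. The median ratio was 1.01, 18 pairs were above 1 in all 4 libraries, 6 were below 1 in all 4, and 12 varied. The 8 pairs with Slc4a4 are all among the 18. Slc4a4 was found in nearly every nucleus, so their ratios have little room above 1, and their means were all 1.01. Of the other 28 pairs 10 were above 1 in all libraries. These are descriptions over nuclei of the same libraries, and no test was made.

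Aqp4 and Gfap had the highest ratio of the 36 pairs, 1.19 (1.11 to 1.22 over libraries). Slc6a11 with Gfap stood lowest at 0.858 (0.833 to 0.875), and Slc7a10 with Gfap followed at 0.863 (0.809 to 0.962). Kcnj10 and Aqp4, the channel pair of the endfoot, were together less often than the product, at 0.902 (0.856 to 0.951). Aqp4 was below 1 in all libraries also with Slc6a11 (0.971) and Slc7a10 (0.966), and Slc1a2 was so with Gfap (0.953). Slc6a11 and Slc7a10 were above 1 with each other, at 1.04 (1.02 to 1.05).

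**Figure D4:**
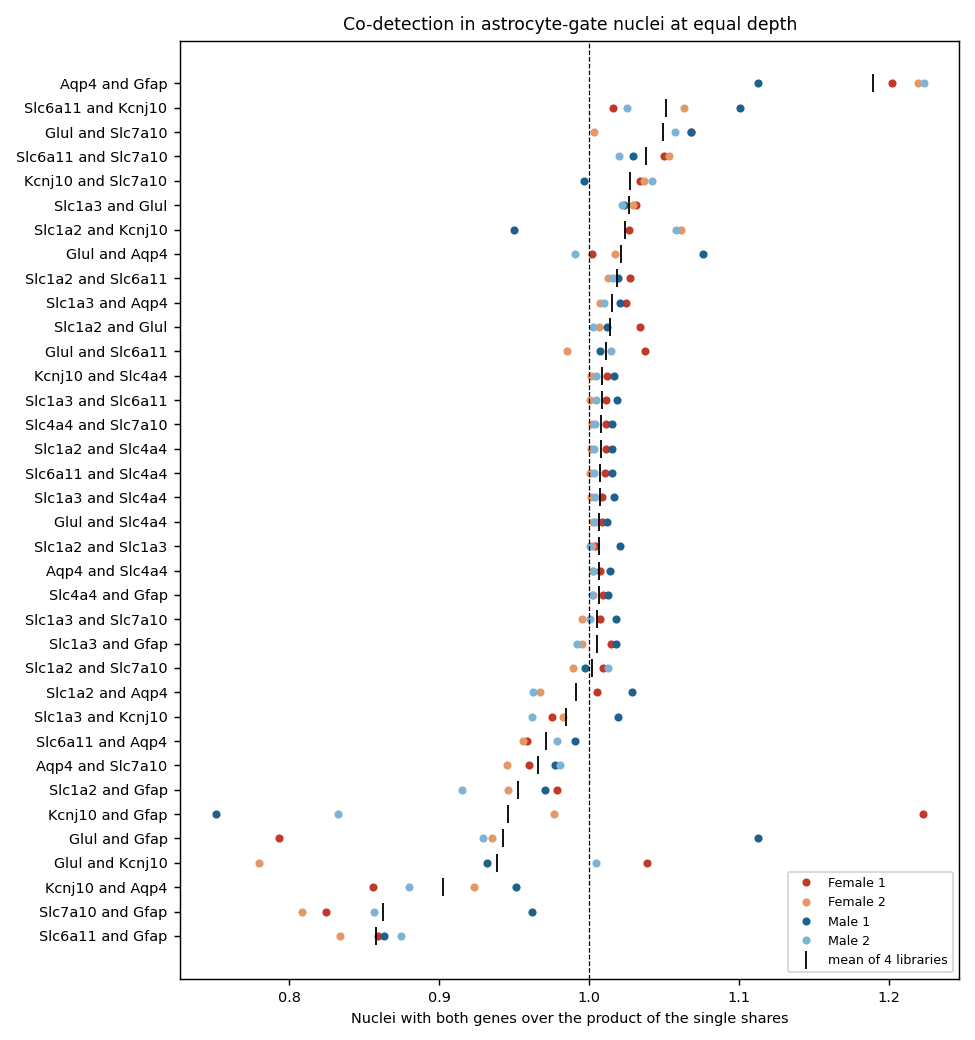
Share of astrocyte-gate nuclei with both genes of a pair over the product of the single shares, at 1500 UMIs, for 36 pairs, with a point for each library, a tick for the mean and a dashed line at 1. Aqp4 with Gfap lies to the right in all 4 libraries, and Gfap with Slc6a11 or Slc7a10 to the left.

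The astrocyte nuclei were then divided by whether they kept a Gfap UMI after thinning to 1500 UMIs, and their full counts were compared within each library. Nuclei with Gfap numbered 93 and 87 in Female 1 and 2 and 53 and 167 in Male 1 and 2, 17.4% to 20.9% of those deep enough. In full counts the nuclei called without Gfap still held 44.4 to 65.6 CPM of it, against 806 to 1130 CPM in those with Gfap. Of 7787 genes tested, 1.36% were higher and 0.86% lower with Gfap by edgeR's adjusted p under 0.05. These 173 calls became 145 without Female 1, 55 without Female 2, 269 without Male 1 and 89 without Male 2. Among the 8 other members Aqp4 was higher, Slc6a11 and Slc7a10 were lower, and 5 were not called. DESeq2 called Aqp4 and Slc6a11 only.

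Aqp4 held 1496, 1245, 1283 and 1326 CPM in nuclei with Gfap and 731, 592, 770 and 677 CPM in nuclei without, in the same library order. The sets did not overlap, and the log2 fold change was 0.96 ± 0.07 (edgeR adjusted p = 4.43e-13). It kept between 0.89 and 1.35 under all alternatives run, each with an adjusted p under 0.05. Slc6a11 held 1080, 890, 1241 and 1130 CPM with Gfap and 1415, 1371, 1497 and 1549 CPM without. All 4 libraries were lower with Gfap and the sets did not overlap (-0.45 ± 0.06, edgeR adjusted p = 1.36e-05). With at least 2 Gfap UMIs the value was -1.12.

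Slc7a10 was lower with Gfap in 3 of 4 libraries, at 679, 445 and 576 CPM against 837, 637 and 810 in Female 1, Female 2 and Male 2, whereas Male 1 held 802 against 781. The log2 fold change was -0.34 ± 0.08 (edgeR adjusted p = 0.00789). The call was lost without Female 2 (adjusted p = 0.235), without Male 2 (0.262), in DESeq2 (0.0743) and without the library block (0.520). Glul had nearly the same estimate, -0.34 ± 0.11, and was not called (edgeR adjusted p = 0.108). It passed in edgeR without Male 1 (-0.43, adjusted p = 0.0126), with a gate minimum of 3 UMIs (-0.39, adjusted p = 0.0327) and with no filter on low counts (-0.41, adjusted p = 0.0203). Slc1a2, Slc1a3, Slc4a4 and Kcnj10 lay between -0.29 and -0.05 and were not called. With no filter Slc1a2 (-0.25, edgeR adjusted p = 0.0292) and Slc4a4 (-0.17, edgeR adjusted p = 0.0492) passed as well. The summed level of the 10 reference astrocyte genes was also lower with Gfap in all 4 libraries, at 2870, 2419, 2542 and 2710 CPM against 3018, 2804, 3188 and 3002 CPM, and its part in the lower values was not tested.

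**Figure D5:**
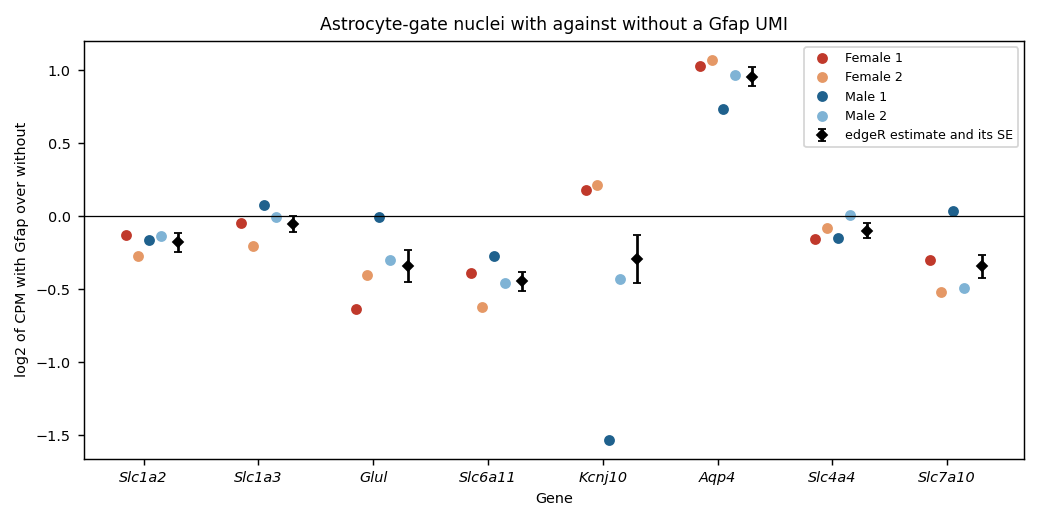
Log2 ratio of CPM in astrocyte-gate nuclei with a Gfap UMI over those without, for 8 genes, with a coloured point for each library and a black diamond for the edgeR estimate with its SE. Aqp4 lies above 0 and Slc6a11 below 0 in all 4 libraries, and Kcnj10 is above 0 in both females and below 0 in both males.

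Aqp4 was higher at each step of Gfap UMIs, a description added after the data were seen. Its mean was 692 ± 77 CPM in nuclei with 0 Gfap UMIs, 1070 ± 121 with 1, 1490 ± 339 with 2 to 3 and 2436 ± 693 with 4 or more (SD, n = 4). Slc6a11 went the other way, from 1458 ± 80 and 1322 ± 240 to 731 ± 322 and 478 ± 131 CPM, and Slc7a10 from 767 ± 89 and 738 ± 201 to 504 ± 131 and 239 ± 42. Of the glutamate carriers, Slc1a2 went from 1003 ± 106, 919 ± 130 and 917 ± 232 to 627 ± 180 CPM. Slc1a3 held 2006 ± 83, 2032 ± 232, 1737 ± 171 and 2007 ± 444 CPM. The steps held 1762, 257, 101 and 42 nuclei, and the upper 2 had as few as 7 and 5 in a library.

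Beyond the members, the nuclei with Gfap had more of Tnc, the matrix protein tenascin-C, at 169 against 30.2 CPM (2.42 ± 0.18, edgeR adjusted p = 3.79e-12). Id1 (2.35 ± 0.36, edgeR adjusted p = 3.72e-05) and Id3 (1.99 ± 0.19, edgeR adjusted p = 2.89e-09), inhibitors of basic helix-loop-helix factors, rose as well. The other genes with the largest rises were AABR07044388.2, Aebp1, Caln1, LOC680875, Tenm4, Sulf1 and Lcat, with log2 fold changes of 1.69 to 3.23. Gria4, an AMPA receptor subunit, fell from 181 to 66.0 CPM (-1.43 ± 0.20, edgeR adjusted p = 9.32e-06). DESeq2 did not call Gria4 (adjusted p = 0.299). Among the largest falls were also AABR07007916.1, Sema3e, Hhip and Gnb1l, from -2.21 to -1.34. Without Female 2 the edgeR calls of LOC680875, Sema3e, Hhip and Gnb1l were lost (adjusted p of 0.0535, 0.404, 0.0557 and 0.0675), and that of Gnb1l also without Female 1 (0.180) or Male 2 (0.385). Summed markers of other cells overlapped between the sets. Oligodendrocyte markers ranged from 393 to 582 CPM with Gfap and 352 to 569 without, and neuron markers from 699 to 1273 and 673 to 832. Ependymal markers summed to 60.5 to 110 CPM with Gfap and 45.3 to 107 without. The part of these markers in the result was not tested.

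Other genes of the same functions were taken from 6 lists. A gene was counted where it was higher in the astrocyte gate than in all 6 other gates, which held for 4.93% of the 13111 genes tested, and 0.931% were lower than in all 6. In the list of glutamate and GABA metabolism 4 of 8 tested were higher, Slc38a3, Glud1, Abat and Aldh5a1. Glud1, glutamate dehydrogenase, held 1060 ± 68 CPM, Abat, the GABA transaminase, 349 ± 13, and Slc38a3, a glutamine carrier, 255 ± 22 (SD, n = 4).

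The potassium list had 4 of 10 higher, among them Kcnj16, Kcnk1 and Atp1b2. Against precursors and dopamine, GABA and glutamate neurons alike, 4 of 10 were higher, beside 14.3% to 18.5% of all genes. Lower were 3 of 10, or 4 against dopamine neurons, beside 14.9% to 21.1% of all genes. The median log2 fold change of the list was 0.25 to 0.53 against these gates, and 4.55 and 5.84 against oligodendrocytes and microglia. The sodium pump subunit Atp1b2 held 1370 ± 219 CPM. Kcnn2 (127 ± 27 CPM) was higher than 2 gates, and Slc12a2, the sodium, potassium and chloride cotransporter (96.7 ± 9.7 CPM), was higher than none and lower than oligodendrocytes.

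In the list of water and endfoot genes 5 of 9 tested were higher, among them Dtna, Mlc1, Slc14a1 and Aqp9. The dystrobrevin Dtna held 1368 ± 46 CPM and Mlc1 423 ± 49. Dystrophin (Dmd) held 1933 ± 215 CPM and was higher than 2 gates. The acid and base list, which includes the relatives of Slc4a4, had 0 of 10 higher than all 6 gates by edgeR, and 2 to 3 of 10 were higher than each single gate, near the 14.3% to 23.6% of all genes given above. From 2 to 5 of 10 were lower, the most against glutamate neurons, where 21.1% of all genes were lower, and the median log2 fold change of the list lay between -0.78 and -0.06 against the 6 gates. Car2, a carbonic anhydrase at 188 ± 15 CPM, was lower than in oligodendrocytes, as were 14.8% of all genes, and higher than in 4 gates, and Slc16a1, a lactate carrier at 48.1 ± 4.8 CPM, was higher than in 5.

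The amino acid list had 3 of 10 higher, Slc3a2, Slc1a4 and Slc7a11, and Slc1a5 was lower. Slc3a2, the heavy chain that pairs with Slc7a10 and some of its relatives, held 462 ± 47 CPM and the cystine exchanger Slc7a11 190 ± 57. Slc6a9, a glycine carrier (402 ± 60 CPM), and the serine enzyme Phgdh (122 ± 25 CPM) were higher than 5 gates, not oligodendrocytes. The list of gap junction, filament and reactive genes had 3 of 7 tested higher, Gjb6 (170 ± 46 CPM), Gjb2 (25.4 ± 1.9) and Cd44 (42.0 ± 14). S100b (586 ± 20) was higher than 5 gates, not oligodendrocytes. Between nuclei with and without Gfap, 2 of the 43 list genes tested were called higher and 1 lower, beside 1.36% and 0.86% of all genes: Cd44 (1.24 ± 0.20, edgeR adjusted p = 1.08e-04) and Slc16a1 (0.82 ± 0.19, edgeR adjusted p = 0.00655) were higher, and Abat (-0.36 ± 0.09, edgeR adjusted p = 0.0274) was lower.

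The genes most like each member over the 28 sums of 4 libraries and 7 gates were ranked by Pearson's r of log2 CPM among 10313 genes. The sums share libraries and the same astrocyte nuclei, so r is only a description. Kcnj10 was most like Hepacam (r = 0.978), the adhesion protein of endfeet, and Slc7a10 most like Ndrg2 (0.968). Slc6a11 was most like Rorb (0.976), Slc1a2 like Arhgef26 (0.967), Aqp4 like Psme4 (0.971), Slc4a4 like Tmem82 (0.974) and Gfap like Cd38 (0.948). The members with wider patterns had other partners, Rab31 for Slc1a3 (0.972) and Selenop for Glul (0.971). Mlc1 was among the 3 most like both Slc7a10 (0.953) and Gfap (0.943).

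The windows before Gfap and Slc6a11, the pair with the lowest co-detection ratio, are given for reading beside the split. Neither held a match to the 4 motifs, so no letters are in capitals. Gfap is at chr10:88361662-88361911 on the minus strand and Slc6a11 at chr4:148853307-148853556 on the plus strand, from RefSeq on GRCr8.
Gfap: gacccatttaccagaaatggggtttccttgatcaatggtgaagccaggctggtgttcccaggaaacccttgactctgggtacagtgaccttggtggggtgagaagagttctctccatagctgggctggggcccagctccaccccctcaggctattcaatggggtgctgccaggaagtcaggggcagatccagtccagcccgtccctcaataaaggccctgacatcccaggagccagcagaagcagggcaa
Slc6a11: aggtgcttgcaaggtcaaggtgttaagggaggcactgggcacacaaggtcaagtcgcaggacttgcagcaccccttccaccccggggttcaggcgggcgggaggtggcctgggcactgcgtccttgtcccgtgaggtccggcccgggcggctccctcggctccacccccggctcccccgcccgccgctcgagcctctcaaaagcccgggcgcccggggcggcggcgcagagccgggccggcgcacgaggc
No match says only that these letters are not in these 250 bases.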

How the data were processed

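Single nuclei of the rat ventral tegmental area were measured in 4 libraries. The tables the authors deposited hold raw UMI counts, written by software version 3.0.2 per the file headers, and the submitters' processing notes name Cell Ranger and the rn6 build. The shallowest barcode had 501 UMIs. Barcodes that held fewer than 200 genes or more than 5% mitochondrial UMIs (6) and the highest Scrublet scores, 0.8% per 1000 barcodes (980), were removed. Scrublet by its own cutoff marked 471. The UMIs of each gate were summed in each library, and the sums were fitted in R 4.3.3 by edgeR 4.0.16 with its quasi-likelihood model, TMM factors and filterByExpr, with library as a block between gates and between nuclei with and without Gfap, and no block between sexes. The 11 gate genes were left out of the gate test. SE was taken from the estimate and its F statistic. Shares at equal depth used thinning to 1500 UMIs, leaving out 244 astrocyte, 156 precursor, 1971 oligodendrocyte and 598 microglia nuclei. On simulated counts 85.3% to 88.5% of genes changed by a log2 of 1 were recovered. Genes named are the members, the 4 highest of each list in the astrocyte gate, the 3 most like each member, the 10 largest rises and 5 largest falls with Gfap, and the sex genes with the lowest p, apart from a few list genes that are not reported here. Members and lists were chosen with earlier results of these data known. The gate minimum for precursors, oligodendrocytes and microglia was assumed equal to that of the other gates. Alternatives were DESeq2 1.42.0, its size factors, no filter, the block, each library left out, doublets kept, a gate minimum of 3, nuclei in several gates kept, 2 Gfap UMIs, and depths of 1000 and 2500.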

Additional observations from a re-analysis of the deposited data

Results flagged for a closer look

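Kcnj10 was higher with Gfap than without in both females (116 against 102 CPM and 126 against 109 CPM) and lower in both males (64.1 against 185 CPM and 105 against 142 CPM). Over all libraries the log2 difference was -0.29 ± 0.16 (edgeR adjusted p = 0.560), from 158 UMIs with Gfap. The difference between the sexes, tested as an interaction added after the data were seen, was 0.96 ± 0.31, females minus males (edgeR adjusted p = 1). It had the lowest unadjusted p of 62 such interactions over the members, of which 5 were under 0.05 before adjustment, and the lowest adjusted p of the 62 was 0.756.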

How the results depend on the processing

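The counts of members called higher in the astrocyte gate (9, 7, 8, 9, 9 and 9) stayed within 1.5 times under every alternative run. Precursor minus oligodendrocyte and precursor minus microglia reversed for Slc4a4 when nuclei in several gates were kept, to -1.12 and -1.18. In the sex test of the astrocyte gate, 7 genes were called, 30 without a filter and 54 with the replicate block. Leaving out a library gave 6 to 35. The labels do not say that the numbers pair the libraries, and the deviations of same-numbered libraries correlated at 0.234 over 10608 genes. No member was called under any of these. Between nuclei with and without Gfap 106 genes were higher and 67 lower. DESeq2 gave 42 and 22 (1 member lower), no filter 141 lower (5 members lower), no replicate block 42 and 8 (1 member lower), nuclei in several gates kept 178 and 227, and 2 Gfap UMIs 40 lower. Leaving out a library gave 38 to 162 higher and 17 to 107 lower, with 1 to 3 members lower. All 64 genes of DESeq2 and 50 without the block were among the 173. Shares of astrocyte nuclei with a UMI followed depth by construction. At 1000 UMIs they were 55.4% for Slc1a2, 81.9% for Slc1a3, 21.8% for Glul, 66.7% for Slc6a11, 10.2% for Kcnj10, 49.5% for Aqp4, 97.8% for Slc4a4, 53.9% for Slc7a10 and 14.1% for Gfap, and at 2500 UMIs 83.7%, 95.5%, 42.4%, 89.7%, 22.2% and 75.9% for the first 6, 77.8% for Slc7a10 and 25.0% for Gfap. With nuclei in several gates kept, Slc1a3 was at 87.6%, Slc6a11 at 75.4% and Slc4a4 at 95.4%, and the median co-detection ratio was 1.03. Leaving out a library gave 0.422% to 0.501% for the median reference gene in glutamate neurons. The cause of these shifts was not tested. Gates of 298 dopamine and 1005 shallow microglia nuclei limit the precision of low levels.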
